A study of Mus musculus with 12 samples.

Results

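Small RNA sequencing of retina from db/db mice was examined for 8 miRNA precursors best known from the pancreas, liver and intestine: mmu-mir-375, mmu-mir-216a, mmu-mir-216b, mmu-mir-217, mmu-mir-122, mmu-mir-192, mmu-mir-194-1 and mmu-mir-194-2. They were chosen by name, and they are 8 of the 997 annotated precursors with reads (1532 precursors when those predicted by the submitters are included). All 12 libraries come from diabetic mice carrying the db/db genotype, that is, no working leptin receptor, on the BL/KsJ background. In the strain label the number before BL increases by 1 from sample to sample, so it was not used. The 6 libraries labelled model are taken here as db/db mice without the drug, and the 6 labelled Keluoxin as db/db mice given Keluoxin, a Chinese herbal capsule. No healthy mice were analysed here, and the sources used here give no age, dose or duration. The tissue is labelled retinal although the extraction protocol speaks of an exosome pellet, and the levels of the neural retina miRNAs mir-182, mir-183, mir-96, mir-124 and mir-9 summed to at least 275200 CPM (reads scaled per library) in every library. Nothing in the labels states that the libraries are separate animals, so each p-value speaks only of the spread among these 12 samples, some of which may be technical.

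miRNAs are short RNAs that repress messenger RNAs whose sites pair with the seed, bases 2 to 8 of the miRNA, and each precursor hairpin can release a miRNA from its 5p or its 3p side. miR-375 is abundant in pancreatic islets, where it restrains insulin secretion, and it is also made by other neuroendocrine cells. miR-216a, miR-216b and miR-217 come from a shared locus active in pancreatic acinar cells, miR-122 is the dominant miRNA of hepatocytes and regulates cholesterol metabolism, and miR-192 and miR-194 are made together in intestine, liver and kidney. In bulk samples, fewer cells of a type and less RNA per cell cannot be told apart.

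The mature sequences below show which members can share targets. They are RefSeq entries on the GRCm38.p6 assembly, written 5′ to 3′ with the seed in capitals; 15 mature entries matched 7 of the 8 precursors and mir-215, the close relative of mir-192. No sequence is shown for miR-375-3p or miR-122-5p.
miR-216a-5p: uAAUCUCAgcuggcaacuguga
miR-216b-5p: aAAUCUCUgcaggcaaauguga
miR-217-5p: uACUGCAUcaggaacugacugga
miR-192-5p: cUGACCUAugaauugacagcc
miR-215-5p: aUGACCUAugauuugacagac
miR-194-5p: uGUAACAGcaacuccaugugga
miR-192-5p and miR-215-5p carry the same seed. The seeds of miR-216a-5p and miR-216b-5p share their first 6 bases and not the last. On GRCm38, Mir216b (chr11:28746191-28746276, plus strand), Mir216a (chr11:28757012-28757083) and Mir217 (chr11:28763728-28763835) follow each other on the plus strand. Mir216a and Mir217 lie in an intron of the long noncoding RNA Gm12082, and Mir216b overlaps Mir216c on the opposite strand. Mir194-2 (chr19:6264643-6264728) and Mir192 (chr19:6264844-6264932) are neighbours on the plus strand, overlap no other annotated gene and have Atg2a as the nearest coding gene. Mir194-1 (chr1:185313319-185313385, plus strand) sits in an intron of the antisense RNA 2010103J01Rik, within Iars2 on the other strand, beside Mir215 (chr1:185313581-185313692). Mir375 (chr1:74900658-74900721, minus strand) overlaps no other gene and lies 1350 bp from Cfap65 and 7515 bp from Cryba2, a lens and retinal crystallin gene.

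The libraries held 1933375 (Keluoxin replicate 5) to 7892147 (model replicate 3) counted reads. The 8 precursors took 117851 reads of 62878432, on 13 arms. Their share of all reads was 0.194% ± 0.0182 in model libraries against 0.177% ± 0.00689 in Keluoxin libraries (SD, 6 libraries each), a difference that did not pass an exact two-sided permutation test (p = 0.0671; adjusted over the 8 per-library measures compared, 0.0895). 9 arms had enough reads for the edgeR test, which was fitted on 811 arms. The other 4, miR-192-3p, miR-194-1-3p, miR-194-2-3p and miR-217-3p, had at most 16 reads in any library. No reads were listed for miR-375-5p or miR-122-3p, and sequences with fewer than 2 reads are not in the files.

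Treatment went with less miR-375-3p and miR-216b-5p and with more miR-122-5p, while the other 6 tested arms did not pass the test. These 3 calls among 9 arms stand beside 140 of 811 arms called in all (17.3% of those tested; 9.25% higher and 8.01% lower) and 70 of 511 annotated arms (13.7%). Of the annotated arms, 21 (4.11%) were called higher and 49 (9.59%) lower. The median log2 fold change was −0.39 over the 9 arms, −0.12 over the annotated arms and 0.03 over all arms. Levels are given as normalized CPM, reads scaled by library sizes after edgeR's TMM adjustment.

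**Figure D1:**
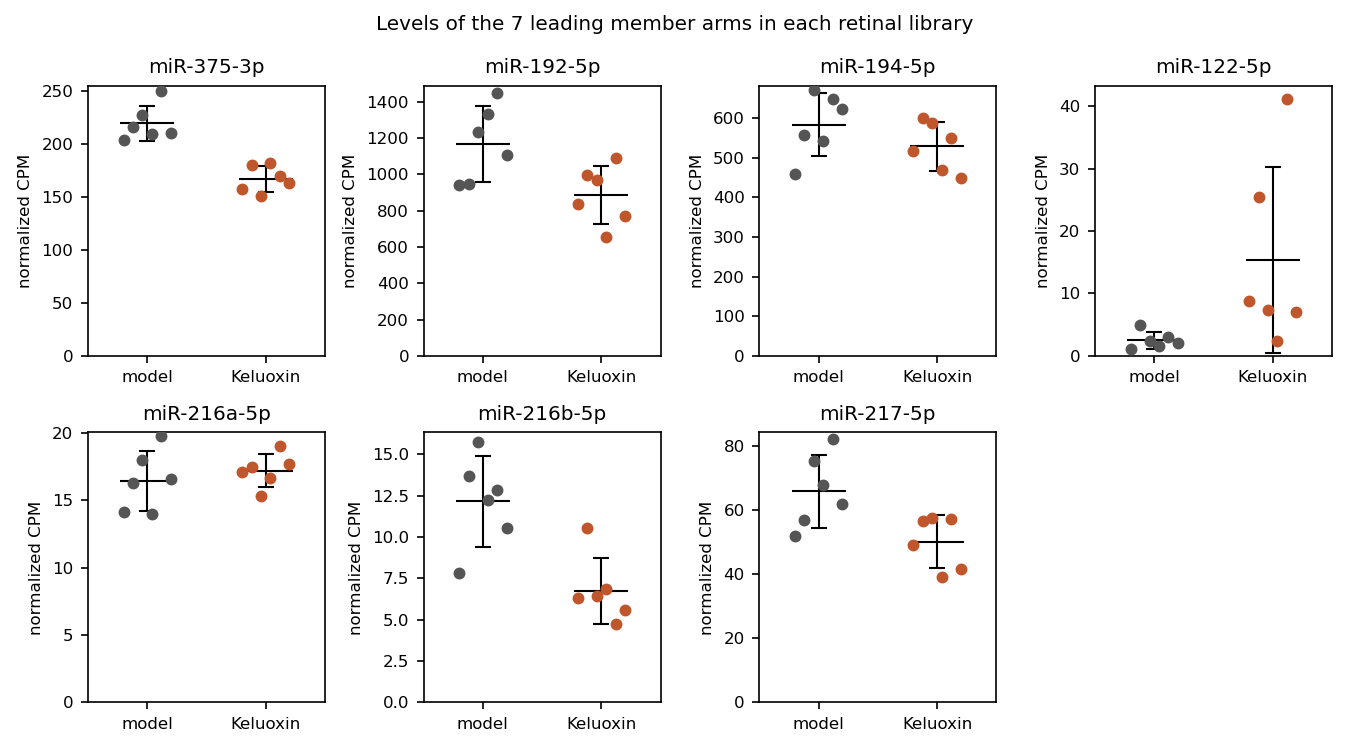
Normalized CPM (vertical axes, from 0) of the 7 leading arms in each library, with model and Keluoxin on the horizontal axis; points are libraries, and lines give the mean and SD of 6. For miR-375-3p the 6 Keluoxin libraries lie between 151.0 and 181.9 CPM, all under the 6 model libraries, while for the other arms the groups overlap.

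miR-375-3p, the islet miRNA, was the third most abundant member. Its lowest, median and highest levels were 203.9, 213.8 and 249.9 CPM in model and 151.0, 166.5 and 181.9 CPM in Keluoxin. All 6 Keluoxin libraries were under all 6 model libraries, which was so for 24 of the 511 annotated arms (4.7%). The mean fell from 219.6 ± 16.8 to 167.3 ± 12.4 CPM (SD, n = 6 each), a log2 fold change of −0.39 with SE 0.09 (adjusted p = 0.0161 in edgeR). With each library left out in turn, the call held in 12 of 12 fits. It was lost when libraries were scaled to their total reads (log2 fold change −0.20, adjusted p = 0.249) and without the filter on low counts (−0.45, adjusted p = 0.0673). As CPM of all reads without TMM, 5 of 6 Keluoxin libraries were under all model libraries (model 191 to 217), and replicate 4 was above them at 236. That library also had the highest summed level of the muscle miRNAs mir-1a, mir-133a, mir-133b and mir-206, 1907 CPM where model libraries had 298 to 427, and the part of this in the result was not tested. The other marker lists did not all move alike. The epithelial list (5 arms tested, 1 called lower, mir-141 and mir-429 not tested) summed to 173 to 327 CPM in model and 103 to 178 in Keluoxin. That sum was carried by miR-203-3p, the arm called lower, which averaged 213 CPM in model and 120 in Keluoxin. The other epithelial arms were not called, with log2 fold changes from −1.45 (miR-200c-3p) to 0.18 (miR-200a-3p). The neural retina list summed to 466800 to 547200 and 275200 to 499800 CPM (2 of 10 arms called lower). Its lowest sum, 275200 CPM, was in Keluoxin replicate 4, the same library that had the most muscle miRNA. The endothelial mir-126a summed to 1597 to 2122 and 1099 to 1415 CPM, a sum carried by miR-126a-3p, which was called lower (log2 fold change −0.63). Its other arm, miR-126a-5p, averaged 171.6 CPM in model and 208.1 in Keluoxin (log2 fold change 0.28, edgeR adjusted p = 0.215). The pigment epithelium and ciliary body list (mir-204 and mir-211) summed to 9445 to 12130 and 10380 to 12170 CPM, with none of its 4 arms called by edgeR or DESeq2, 0 at an unadjusted edgeR p under 0.05 and a median log2 fold change of 0.07. The part of these lists in the level of miR-375-3p was not tested.

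The choice of scaling moved all arms together. Relative to the TMM fit, whose median log2 fold change over all arms was 0.03, scaling to total reads moved that median to 0.22 and upper quartile scaling moved it to −0.23. The split of called arms moved with it, from 75 higher and 65 lower to 89 and 26 with total reads and to 72 and 110 with upper quartile scaling. Taken relative to the median of all arms, the members kept nearly the same values, which follows from a shift shared by all arms. It is therefore no test of their changes. miR-375-3p stood −0.43 from that median with TMM, −0.42 with total reads and −0.43 with upper quartile scaling. miR-216b-5p stood at −0.87, −0.88 and −0.89 in the same order, and miR-122-5p at 2.52, 2.43 and 2.51.

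**Figure D2:**
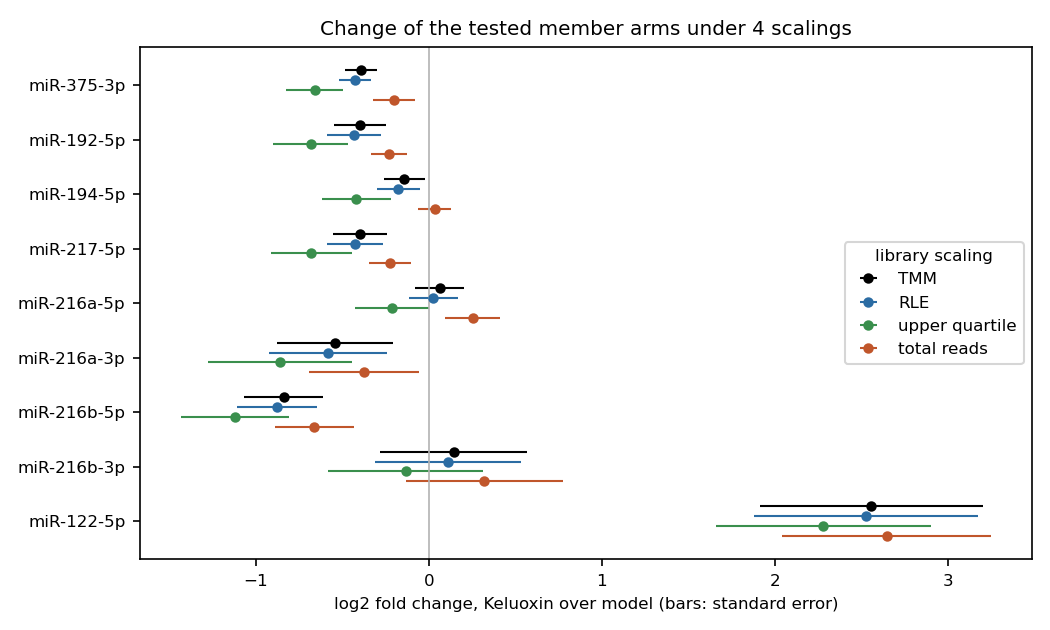
Log2 fold change, Keluoxin over model (horizontal axis), of the 9 tested member arms under 4 scalings of the libraries; points are edgeR estimates and bars are standard errors. miR-375-3p runs from −0.66 with upper quartile scaling to −0.20 with total reads, and miR-122-5p is above 2 under each of the 4.

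By the likeness of its level across the 12 libraries, miR-375-3p was nearest to miR-126a-3p, an endothelial miRNA, with a Pearson r of 0.92 on log2(CPM + 1). miR-3099-3p (r = 0.907) and miR-666-5p (r = 0.897) came next. These are descriptions over 12 libraries that share scaling and groups, and all 3 were themselves lower in Keluoxin (log2 fold changes −0.63, −0.63 and −0.81, edgeR adjusted p = 0.00515, 0.00796 and 0.0161).

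miR-375-3p also changed in the make-up of its reads. A read was called exact when it matched the precursor at every base. The remaining reads held a changed, added or missing base, mostly at the last base. Enzymes can add bases there that the gene does not encode. Sequencing errors also give reads that are not exact, and the part of each source was not tested. Reads that were not exact made up 32.2% ± 2.54 of miR-375-3p in model libraries and 49.5% ± 1.28 in Keluoxin libraries (SD, n = 6 each). The libraries ran from 29.6% to 36.9% in model and from 48.1% to 51.5% in Keluoxin, with no overlap; all Keluoxin libraries were above all model libraries for 39.1% of the arms tested. The log2 ratio of not exact to exact reads rose by 1.05 (SE 0.08, limma adjusted p = 4.03e-07). This was the largest rise among the 258 annotated arms with enough reads, but a change was the rule: 210 of them were called (81.4%). Of all 258, 209 (81.0%) were called higher and 1 (0.388%) lower, with a median change of 0.46 and quartiles of 0.30 and 0.59.

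The other abundant members differed in how far they took part. For miR-194-5p the not exact share went from 27.3% ± 1.18 to 40.3% ± 0.89, also with no overlap between libraries. Its log2 ratio rose by 0.84 (SE 0.07, limma adjusted p = 4.03e-07), the 7th largest of the 258. miR-192-5p already had 55.1% ± 2.59 not exact reads in model and rose to 60.6% ± 3.46, a log2 ratio change of 0.33 (SE 0.10, limma adjusted p = 0.0107) that ranked 184th. For miR-217-5p the shares were 31.9% ± 2.28 and 36.1% ± 5.30 and the change of 0.26 (SE 0.14) did not pass (limma adjusted p = 0.0978); it passed without Keluoxin replicate 5 (adjusted p = 0.00173). In the pooled reads of all annotated arms, where abundant arms weigh most, the share moved from 39.1% ± 1.48 to 47.1% ± 2.70. The members' rises stand within this shift of the whole libraries, whose part in them was not tested. Counting exact reads alone, the log2 fold change of miR-375-3p was −0.58 (edgeR adjusted p = 0.00477) instead of −0.39.

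**Figure D3:**
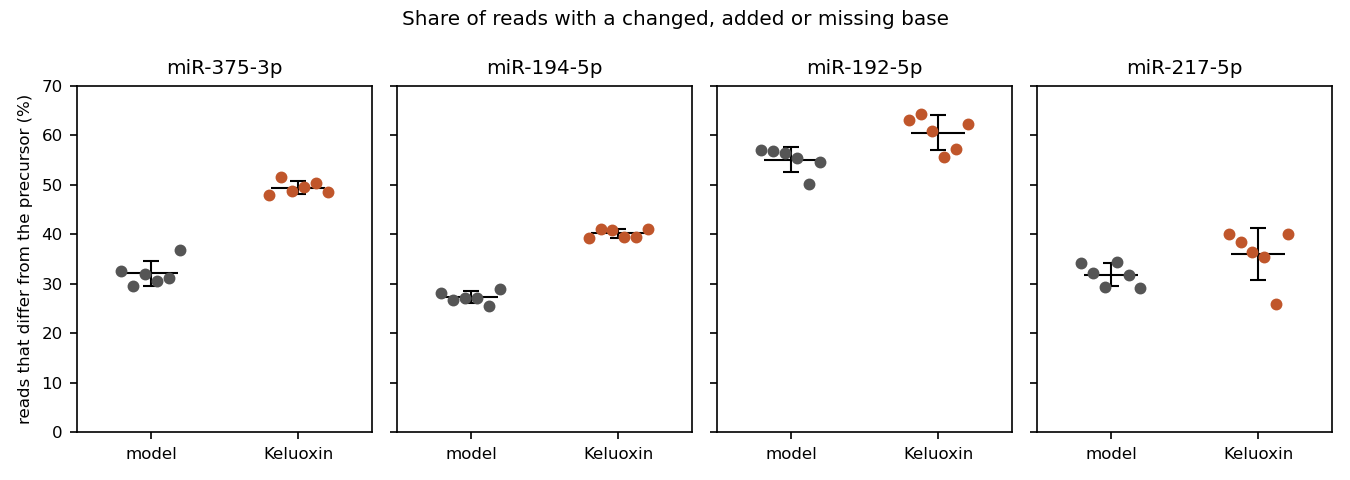
Share of reads that are not exact (percent, vertical axis) for miR-375-3p, miR-194-5p, miR-192-5p and miR-217-5p by group; points are libraries, and lines give the mean and SD of 6. The groups are apart for miR-375-3p (up to 36.9% in model, from 48.1% in Keluoxin) and miR-194-5p, and overlap for miR-192-5p and miR-217-5p.

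The bases at the end of miR-375-3p show what made up the rise. A last base changed to T, as uridine is written in the files, was found in 11.8% ± 1.36 of its reads in model and 16.0% ± 0.72 in Keluoxin. A last base changed to C was found in 3.12% ± 1.22 and 7.25% ± 0.995, and to G in 4.27% ± 1.20 and 7.21% ± 2.23. Changes to A stood at 7.93% ± 1.02 and 7.96% ± 0.814. Other differences from the precursor, elsewhere in the read or at several bases, made up 5.06% ± 1.23 and 11.04% ± 2.07, so the rise was not confined to single changes of the last base. In the pooled reads of all annotated arms, where abundant arms weigh most, changes to C (4.69% ± 0.908 and 8.19% ± 1.52) and G (4.17% ± 0.422 and 6.71% ± 1.69) were also higher in Keluoxin. Changes to T in these pooled reads were not (9.91% ± 0.801 and 9.04% ± 0.678). Shares by base were not computed for single arms outside the members, so the pooled values do not show what most arms did. Other members shared the higher share of changes to T. The means were 6.09% ± 0.724 and 9.22% ± 0.98 for miR-194-5p and 8.66% ± 1.52 and 11.2% ± 2.53 for miR-217-5p. On fewer reads they were 3.37% ± 1.93 and 9.74% ± 4.51 for miR-216a-5p and 6.00% ± 0.563 and 9.48% ± 5.48 for miR-216b-5p. Neither miR-122-5p (1.85% ± 4.54 and 0%) nor miR-192-5p showed it. For miR-192-5p, 30.3% ± 2.90 of reads in model and 28.5% ± 1.87 in Keluoxin had a last base changed to T. These shares are descriptions with no test of their own.

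miR-216b-5p was the member that fell furthest. Its lowest, median and highest levels were 7.80, 12.6 and 15.8 CPM in model and 4.75, 6.39 and 10.5 CPM in Keluoxin. 5 of 6 Keluoxin libraries were under all model libraries, and replicate 2, at 10.5 CPM, lay within the model range. All 6 were under for 24 of the 511 annotated arms (4.7%), a stricter pattern, and the share of arms with 5 under was not counted. The mean went from 12.2 ± 2.74 to 6.76 ± 2.00 CPM (SD, n = 6 each), a log2 fold change of −0.84 with SE 0.23 (adjusted p = 0.0301 in edgeR). The counts are small, 33 to 118 reads in a model library and 9 to 52 in a Keluoxin library. The call held in 5 of 12 fits with 1 library left out, with adjusted p between 0.01 and 0.0651. It was lost without model replicates 2 (0.0536), 3 (0.0616), 4 (0.0651) or 5 (0.0603) and without Keluoxin replicates 1 (0.0556), 5 (0.0535) or 6 (0.0639). It was also lost with total reads scaling (log2 fold change −0.66, adjusted p = 0.0657) and without the low-count filter (−0.90, adjusted p = 0.0827).

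Its neighbours on chromosome 11 did not pass. miR-216a-5p, whose seed differs from that of miR-216b-5p in its last base, ran from 14.0 to 19.8 CPM in model and from 15.3 to 19.0 in Keluoxin, so the ranges were nested (log2 fold change 0.06, SE 0.14, edgeR adjusted p = 0.840). miR-217-5p had a lowest, median and highest level of 51.7, 64.7 and 81.9 CPM in model and 39.2, 52.7 and 57.5 in Keluoxin. 3 Keluoxin libraries lay under all model libraries, and the change of −0.40 (SE 0.16) did not pass (edgeR adjusted p = 0.0955). The minor arms miR-216a-3p (−0.54, SE 0.34, adjusted p = 0.255) and miR-216b-3p (0.14, SE 0.43, adjusted p = 0.828) had between 2 and 32 reads in a library.

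Ratios of reads within the locus do not depend on how libraries are scaled. The log2 ratio of miR-216b-5p to miR-216a-5p averaged −0.46 ± 0.28 over model libraries and −1.37 ± 0.41 over Keluoxin libraries (SD, n = 6 each). Its model libraries ran from −0.85 to −0.19 and its Keluoxin libraries from −1.94 to −0.73, so 1 Keluoxin library, replicate 2, reached into the model range. The difference of −0.92 passed an exact two-sided permutation test (p = 0.00433, adjusted over the 8 measures 0.0173; 924 assignments allow no p under 0.00217). The ratio of miR-216a-5p to miR-217-5p went the other way, from −1.99 ± 0.17 to −1.52 ± 0.27, a difference of 0.47 (exact permutation p = 0.00866, adjusted 0.0231). The ratio of miR-216b-5p to miR-217-5p, −2.44 ± 0.26 and −2.89 ± 0.41, did not pass after adjustment (exact permutation p = 0.0476, adjusted 0.0762). The first 2 differences had an unadjusted p under 0.05 with any 1 library left out.

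**Figure D4:**
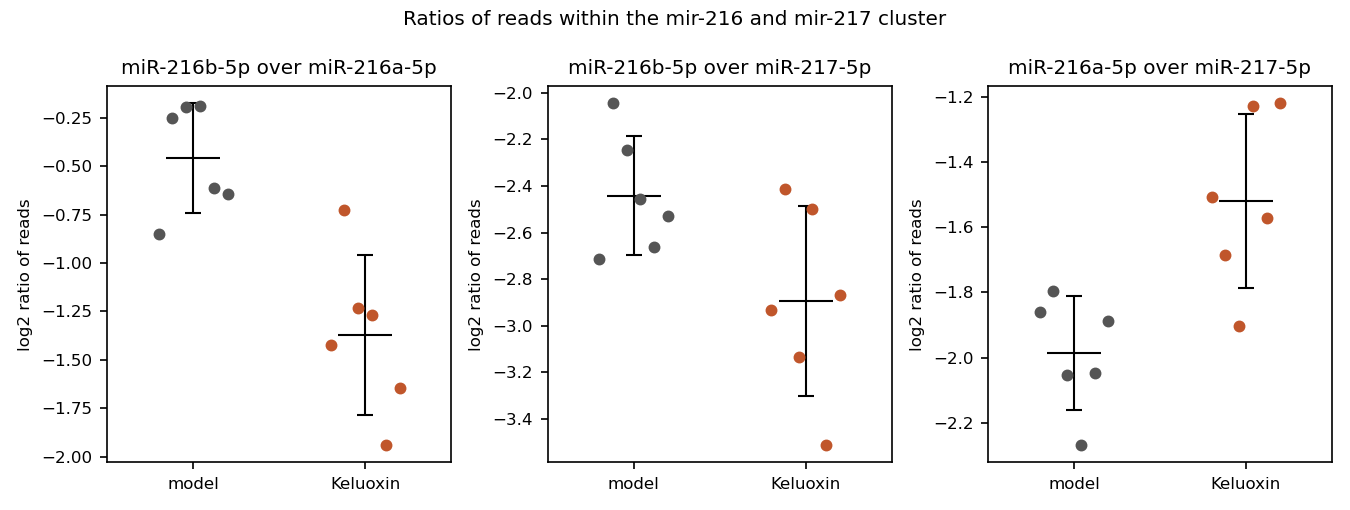
Log2 ratios of reads (vertical axes) between miR-216b-5p, miR-216a-5p and miR-217-5p by group; points are libraries, and lines give the mean and SD of 6. The ratio of miR-216b-5p to miR-216a-5p averages −0.46 in model and −1.37 in Keluoxin, and that of miR-216a-5p to miR-217-5p averages −1.99 and −1.52.

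The balance of the hairpin arms was measured as the log2 ratio of 5p to 3p reads. The 5p arm led in every library for both mir-216 precursors. Its share ran from 68.8% to 94.9% in model and from 63.3% to 87.7% in Keluoxin for mir-216b, and from 77.1% to 92.3% and from 84.1% to 94.0% for mir-216a. For Keluoxin replicate 5, with 9 and 5 reads on the arms of mir-216b, the exact 95% binomial interval of the share runs from 35.1% to 87.2%, which covers counting error alone. Neither change passed the limma test, which called 27 (21.4%) of the precursors tested: it was −1.22 (SE 0.46, adjusted p = 0.0738) for mir-216b and 0.52 (SE 0.32, adjusted p = 0.243) for mir-216a. The change for mir-216b passed without model replicate 1 (adjusted p = 0.0285) or Keluoxin replicate 2 (adjusted p = 0.042).

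miR-217-5p was released with 2 starts, which gives it 2 seeds. Beside the RefSeq form, 43.4% of its reads began 1 base earlier, and the capitals mark the seed of that form.
miR-217-5p, 1 base earlier: aUACUGCAucaggaacugacugga
The earlier start made up 44.2% ± 3.60 (SD, n = 6) of model reads of miR-217-5p and 43.5% ± 2.33 of those with Keluoxin (exact permutation p = 0.688, adjusted 0.706). The libraries ran from 39.6% to 48.9% and from 41.4% to 47.7%, so both starts were present at similar shares in all 12. For miR-216b-5p all 624 reads had the same start, and for miR-216a-5p 99.6% did.

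miR-122-5p, the hepatocyte miRNA, comes from Mir122 (chr18:65248861-65248926 on GRCm38, plus strand), in an exon of the long noncoding RNA AC157910.3. It was near the bottom of the annotated arms in model retina, 475th of 511 by mean level. Its lowest, median and highest levels were 1.18, 2.20 and 4.89 CPM in model and 2.38, 8.04 and 41.2 CPM in Keluoxin. 5 of 6 Keluoxin libraries were above all model libraries. All 6 were above for 10 annotated arms (1.96%), a stricter pattern, and the share of arms with 5 above was not counted. In replicates 1 to 6 the Keluoxin levels were 8.77, 25.5, 7.31, 2.38, 41.2 and 7.09 CPM, so 2 libraries carried most of the mean. The mean rose from 2.52 ± 1.34 to 15.4 ± 14.9 CPM (SD, n = 6 each), a log2 fold change of 2.56 with SE 0.65 (adjusted p = 0.0219 in edgeR). This rests on 87 reads over the model libraries (5 to 31 each) and 341 over the Keluoxin libraries (18 to 121 each). With 1 library left out the log2 fold change ran from 1.99 to 2.85 and the call held in 11 of 12 fits. Without Keluoxin replicate 5 it was 1.99 (adjusted p = 0.0399), and without model replicate 4 the call was lost (2.44, adjusted p = 0.0552). Of its reads, 98.4% shared a start and 74.3% were exact. Over all members together, 3 reads also matched a predicted precursor.

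Red blood cell miRNAs were also higher in some Keluoxin libraries, and muscle miRNAs were so mainly in replicate 4. miR-451a-5p, made in red blood cells, stood at 20.8 to 43.4 CPM in model and at 24.9, 35.0, 322, 359, 650 and 147 CPM in Keluoxin replicates 1 to 6. The erythroid list as a whole (miR-451a, miR-486a and miR-486b, with mir-144 not tested) summed to 84.7 to 105 CPM in model and 82.0 to 787 in Keluoxin, and 1 of its 3 tested arms was called higher. Muscle miRNAs summed to 298 to 427 and 286 to 1907 CPM, with 1 of 4 arms called higher. The sum of 1907 CPM was in Keluoxin replicate 4. The most abundant of them, miR-1a-3p, stood at 1693 CPM there. In the other Keluoxin libraries it stood at 248 to 383 CPM, and in model at 272 to 395. Keluoxin replicate 5 was highest in both miR-122-5p (41.2 CPM) and miR-451a-5p (650), replicate 2 had 25.5 CPM of miR-122-5p with 35.0 of miR-451a-5p, and replicate 4 had 2.38 with 359. The part of blood or muscle RNA in the miR-122-5p result was not tested. Leukocyte miRNAs (miR-142a, miR-150 and miR-155; mir-223 not tested) summed to 74.5 to 85.8 and 71.2 to 91.2 CPM, with none of 3 arms called by edgeR or DESeq2 (1, miR-142a-5p, at an unadjusted edgeR p under 0.05).

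**Figure D5:**
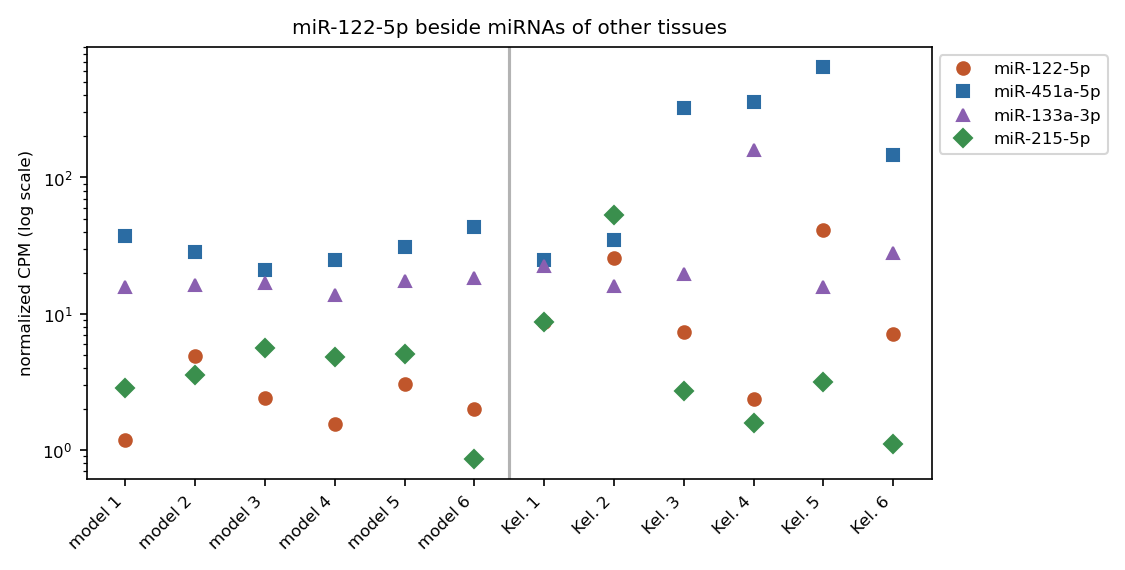
Normalized CPM on a log axis for miR-122-5p beside miRNAs of other tissues in each of the 12 libraries; each point is 1 library. miR-122-5p peaks in Keluoxin replicates 5 (41.2) and 2 (25.5), miR-451a-5p in replicates 5 (650), 4 (359) and 3 (322), and miR-215-5p in replicate 2 (52.7).

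The annotated arms with the most similar levels to miR-122-5p over the 12 libraries were miR-27a-3p (Pearson r = 0.825 on log2(CPM + 1)), miR-1843b-5p (r = 0.816) and miR-3970-5p (r = 0.764). Their own log2 fold changes were 0.41, 0.16 and 0.75, far smaller than that of miR-122-5p.

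miR-192-5p and miR-194-5p were the most abundant members, 55th and 79th of the 511 annotated arms by mean model level. miR-192-5p had a lowest, median and highest level of 940, 1170 and 1446 CPM in model and 657, 901 and 1088 CPM in Keluoxin. 3 Keluoxin libraries were under all model libraries, and the log2 fold change of −0.40 (SE 0.15) did not pass (edgeR adjusted p = 0.0842). It passed with upper quartile scaling (−0.68, adjusted p = 0.0403) and without model replicate 1 (−0.45, adjusted p = 0.0457). miR-194-5p, read from both of its gene copies, had 458, 591 and 670 CPM in model and 450, 532 and 600 in Keluoxin. Its ranges overlapped (log2 fold change −0.14, SE 0.12, edgeR adjusted p = 0.387). The log2 ratio of miR-194-5p to miR-192-5p was −0.99 ± 0.21 in model and −0.73 ± 0.16 in Keluoxin, a difference that did not pass after adjustment (exact permutation p = 0.0390, adjusted 0.0762).

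miR-192-5p also had 2 starts, and the later start moves its seed by 1 base. The form that begins 1 base later, with its seed in capitals, follows.
miR-192-5p, 1 base later: uGACCUAUgaauugacagcc
It made up 17.1% ± 2.50 of miR-192-5p reads in model and 17.6% ± 1.84 in Keluoxin (exact permutation p = 0.706, adjusted 0.706), from 15.1% to 21.9% and from 15.6% to 20.02% in the single libraries. Only 83 reads could not be told apart between miR-192-5p and miR-215-5p. miR-215-5p itself, which shares the seed, stood at 0.857 to 5.61 CPM in model and at 8.77, 52.7, 2.72, 1.59, 3.17 and 1.12 CPM in Keluoxin replicates 1 to 6. Replicate 2 held the highest value by far, and the change did not pass (log2 fold change 1.60, SE 0.90, edgeR adjusted p = 0.214).

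The 2 gene copies of miR-194 can be told apart only in reads that run past the shared mature sequence. The next 2 bases of each copy are in capitals.
mir-194-1, chromosome 1: uguaacagcaacuccauguggaCU
mir-194-2, chromosome 19: uguaacagcaacuccauguggaAG
Of the exact miR-194-5p reads, 19838 fitted both copies, 3484 only mir-194-2 and 177 only mir-194-1. The mir-194-1 share of copy-specific reads was 2.93% ± 1.15 (SD, n = 6) in model libraries against 8.24% ± 2.53 in Keluoxin libraries (exact permutation p = 0.00433, adjusted 0.0173), on 4 to 15 mir-194-1 reads per model library and 13 to 35 per Keluoxin library. The libraries ran from 1.62% to 4.89% and from 4.80% to 12.3%, so 1 Keluoxin library, replicate 4, lay within the model range. All 177 reads that fitted only mir-194-1 were the 22-base mature form with 1 further C. None of them reached the second base shown for that copy. The share of mir-194-1 therefore rests on a single C, which can also be an added base or a sequencing error. As shares of the summed reads of the 22-base mature form and its 4 forms with 1 further base, those ending in a further C stood at 0.688% ± 0.338 in model and 1.82% ± 0.729 in Keluoxin, those with G at 1.56% ± 0.529 and 3.25% ± 1.47, those with T at 4.13% ± 0.814 and 5.77% ± 1.08, and those with A at 21.4% ± 2.19 and 18.7% ± 1.92. At that position neither copy encodes G or T. The part of added bases or sequencing errors in the share of mir-194-1 was not tested.

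Other miRNAs known from islet, pancreas, liver or gut were counted from a fixed list of mir-215, mir-802, mir-7a, mir-7b, mir-153, mir-148a, mir-33, mir-101a, mir-101b, mir-22, mir-455 and mir-130a. None of their 18 tested arms passed the edgeR test or DESeq2's after adjustment, and 4 had an unadjusted edgeR p under 0.05 (miR-101b-3p, miR-148a-3p, miR-22-3p and miR-455-5p). Their median log2 fold change was −0.17, beside −0.12 over all annotated arms. miR-7a-5p, which is made in islets and in neurons, averaged 13093 ± 1093 CPM over the model libraries and 13317 ± 3598 over the Keluoxin libraries (SD). miR-802-5p, a liver and islet miRNA, stood at 2.38 ± 1.07 and 3.15 ± 0.615 CPM. By mean model level the tested members followed the order miR-192-5p, miR-194-5p, miR-375-3p, miR-217-5p, miR-216a-5p, miR-216b-5p, miR-216a-3p, miR-122-5p and miR-216b-3p. In the model libraries the ranges of neighbours did not overlap among the first 5; those of miR-216a-5p and miR-216b-5p overlapped, as did those of the last 3.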

How the data were processed

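Small RNA libraries of inserts of 15 to 35 nt were made from total RNA, per the labels' protocols, for 6 model and 6 Keluoxin samples. Tools named in the submitters' processing notes are cutadapt, Bowtie, Novoalign and bcl2fastq; genome build and miRBase release were not given in the sources used here. The deposited tables list read sequences with their counts, not normalized, for sequences with at least 2 reads; the other deposited values, positions and lengths, have no normalization. Where a sequence fitted several precursors the authors divided its count, and the undivided count in its tag name was used here once per arm. Arms of gene copies that shared most reads were joined. In the main fits, the count of a sequence that fitted different arms was shared equally among them.

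Reads were assigned to the 5p or 3p arm by the side of the precursor's middle. Levels were tested with edgeR 4.0.16 (TMM, low-count filter, quasi-likelihood test) over 811 arms, and arm balance (both arms with 10 or more reads in 6 libraries) and the share of not exact reads (at least 50 reads in every library) with limma 3.58.1 on log2 ratios with 0.5 added, all with Benjamini-Hochberg adjustment at 0.05. Exact two-sided permutation tests over 924 assignments were used for 8 single measures, adjusted over those 8. Alternatives covered scaling, filters, DESeq2 1.42.0, read classes, a replicate block and left-out libraries. The fits were tested on simulated data. There edgeR called 9% of arms changed 1.5-fold, 55.2% of those changed 2-fold and 81.8% of those changed 4-fold. It called 0.5% of unchanged arms. A level that did not pass can therefore still differ, also by 2-fold or 4-fold. These rates are taken over all arms and were not split by read count. Changes of 1 log2 unit were called in 90.6% of cases for arm balance and 98.4% for not exact reads. Smaller changes, or a shift shared by most arms, were not simulated for these measures. R 4.3.3, Python 3.11.15, pandas 2.3.3, NumPy 2.4.6 and SciPy 1.17.1 were used. Gene positions come from GENCODE on GRCm38. All arms of the 8 precursors were named, with the 3 arms most like miR-375-3p and miR-122-5p; the members, lists and measures were chosen with earlier results of these data known. Normalized counts from libraries of 1933375 to 7892147 reads limit arms of under 50 reads most, and reads are not independent molecules.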

Additional observations from a re-analysis of the deposited data

Results flagged for a closer look

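In 4 of the 40 groups of 6 libraries examined, 1 library lay far from the other 5 by Dixon's test, which chance alone does in about 1 group of 20. Keluoxin replicate 2 had 10.53 CPM of miR-216b-5p, the highest of its group. In model replicate 5, 50.19% of miR-192-5p reads were not exact, the lowest of the model group. In Keluoxin replicate 5, the shallowest library, 25.93% of miR-217-5p reads were not exact, the lowest of that group. In model replicate 2, 21.9% of miR-192-5p reads began 1 base later, the highest of the model group.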

How the results depend on the processing

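Of the 3 member calls, miR-122-5p held in 11 of 11 fits with other processing and in 11 of 12 with 1 library left out, whereas miR-375-3p and miR-216b-5p were each lost with total reads scaling and without the low-count filter. Arms called over the whole table, 140, were 236 with DESeq2 (2143 arms tested), 75 on annotated precursors alone, 228 without model replicate 1 and Keluoxin replicate 4 together (added after seeing the data) and 72 to 244 with 1 library left out, lowest without model replicate 4 and highest without model replicate 1. Precursors called for arm balance, 27, were 8 to 29 with 1 library left out, and arms called for their share of not exact reads, 210, were at most 222. Among members that did not pass, signs turned for miR-194-5p with total reads scaling (0.0336), for miR-216a-5p with upper quartile scaling (−0.21), no filter (−0.0017) and both libraries left out (−0.0568), and for miR-216b-3p with upper quartile scaling (−0.13) and, with 1 library left out, without model replicates 5 (−0.0011) and 6 (−0.0317; highest 0.4503); the difference in early starts of miR-217-5p turned to 0.1859 percentage points without model replicate 1 (lowest −1.6653 with 1 library left out). The causes were not tested. miR-192-5p and miR-217-5p also passed without both of those libraries (adjusted p = 0.0295 and 0.0378), and miR-217-5p without model replicate 1 (0.0479).

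The replicate numbers are shared by the groups but no label pairs them, and the deviations of same-numbered libraries correlated at 0.05 to 0.254, with 1 of 6 closest to its own number. With the replicate block 137 arms were called for level, 20 precursors for arm balance and 213 arms for not exact reads, and no member call changed (miR-375-3p adjusted p = 0.0475, miR-216b-5p 0.0478, miR-122-5p 0.029). Depth limits the arms with few reads: miR-216b-5p had 9 reads in the shallowest library.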
